A study of Mus musculus with 179 samples.

Results

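The genes described here are those of the proteasome family, taken as every protein-coding gene whose mouse symbol begins with Psm, a letter from a to g and a number. The rule found 50 genes among the 32100 gene identifiers counted, and each of the 50 was present in the count table. Of these, 14 encode the constitutive subunits of the 20S core (7 of the α ring and 7 of the β ring) and 17 encode subunits of the 19S regulatory particle (6 ATPases and 11 others). A further 3 encode the inducible catalytic subunits of the immunoproteasome, 2 encode tissue-specific core subunits, 4 encode other activators, 1 encodes an inhibitor and 7 encode assembly chaperones. The last 2 match by symbol only: Psmc3ip is a meiotic recombination factor and no subunit, and Psme2b is a near-identical copy of the activator gene Psme2.

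The data were transcript counts from single cells that formed 1 group, all labelled as wild-type C57BL6 acinar cells of the mouse exocrine pancreas and all grown for 9 days as organoids in Matrigel, a basement membrane gel. The age of the mice was not given in the labels, and no treatment or second genotype was compared. The labels name neither mouse nor culture, so cells are not replicates of a condition: the values below describe this population, with no test between conditions and no p-value. RNA was read with Smart-seq3, a full-length method that counts captured molecules by unique molecular identifiers (UMIs), as 1 layer of a multi-omic protocol whose methylation and accessibility layers were not used here.

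The proteasome degrades proteins tagged with ubiquitin. Its 20S core is a barrel of stacked rings in which only some β subunits cut peptide bonds, and the 19S particle caps the barrel, recognises the tag, removes it and feeds the unfolded chain inwards with its ATPases. Interferon induces the inducible catalytic subunits, which replace their constitutive counterparts during assembly and change the peptides that reach MHC class I molecules. Acinar cells make more secretory protein than most cells and rely on the proteasome to clear misfolded chains from the endoplasmic reticulum.

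Cells held a median of 165267 UMIs (range 3258 to 329522), and levels are given as counts per 1000000 UMIs (CPM), pooled over all cells unless a single cell is named. Variation over cells was described in the epithelial cells with at least 40000 UMIs (77 with a title number up to 96 and 78 with a higher one), each thinned at random to 40000 UMIs so that depth was equal. The label and the markers differed. In these cells the 15 acinar enzyme genes of the marker list summed to a median of 131.1 CPM, against a median of 15589 CPM for the 8 epithelial genes, among them the duct keratins Krt7 and Krt19. A single cell, Acinar52, held 268509 CPM of the enzyme genes and is named separately where it matters. The next highest epithelial cells were Acinar55 at 22372, Acinar98 at 11865 and Acinar155 at 10054 CPM. In 6 further cells the 10 fibroblast genes summed to 3517 to 9749 CPM, against at most 274 CPM in the epithelial cells; these fibroblast-rich cells were kept apart. The endothelial list (6 genes) reached at most 379 CPM and the immune list (8 genes) at most 259 CPM in any epithelial cell.

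Stretches of DNA upstream of 5 subunit genes and a short window at a further one are shown because they belong to 4 of the 6 catalytic subunits compared below, the β-ring gene Psmb3 that varied most closely with the rest, and Psmd8, which did not. Each is taken from RefSeq on GRCm38.p6 and read 5′ to 3′ on the strand of its gene, and the longer ones hold no annotated exon. Capitals mark letters that match 1 of 5 motifs on either strand: TGACNNNGC (the core of the antioxidant response element), TTCNNNGAA (the gamma-activated site bound by STAT factors), the core of the interferon-stimulated element (pairs of GAAA spaced by 2 bases), CCAAT and GGGCGG (the GC box).
Psmb5 (constitutive, chr14:54618023-54618245, minus strand): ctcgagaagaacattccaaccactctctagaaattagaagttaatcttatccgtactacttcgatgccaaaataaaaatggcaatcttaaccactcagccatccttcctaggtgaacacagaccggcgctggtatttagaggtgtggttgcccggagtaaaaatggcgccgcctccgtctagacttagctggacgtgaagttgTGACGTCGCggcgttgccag
Psmb6 (constitutive, chr11:70525107-70525356, plus strand): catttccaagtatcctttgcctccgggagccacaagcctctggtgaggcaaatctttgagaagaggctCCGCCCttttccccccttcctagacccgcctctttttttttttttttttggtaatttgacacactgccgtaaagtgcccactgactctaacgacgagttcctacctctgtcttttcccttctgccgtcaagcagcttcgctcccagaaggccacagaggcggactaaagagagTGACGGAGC
Psmb3 (β ring, chr11:97703184-97703398, plus strand): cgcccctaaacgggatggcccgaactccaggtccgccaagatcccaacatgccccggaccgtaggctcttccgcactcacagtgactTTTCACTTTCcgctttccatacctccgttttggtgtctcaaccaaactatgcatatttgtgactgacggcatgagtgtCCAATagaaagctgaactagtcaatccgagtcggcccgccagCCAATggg
Psmd8 (19S, chr7:29180702-29180923, minus strand): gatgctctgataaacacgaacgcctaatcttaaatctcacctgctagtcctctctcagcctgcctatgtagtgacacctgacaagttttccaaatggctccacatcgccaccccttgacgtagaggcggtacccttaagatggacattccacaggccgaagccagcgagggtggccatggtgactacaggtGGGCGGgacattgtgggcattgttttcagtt
Psmb10 (inducible, chr8:105938445-105938642, minus strand): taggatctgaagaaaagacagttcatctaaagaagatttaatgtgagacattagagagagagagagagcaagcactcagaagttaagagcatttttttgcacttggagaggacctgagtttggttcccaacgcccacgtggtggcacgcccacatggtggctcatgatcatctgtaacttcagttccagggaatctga
Psmb8 (inducible, window at the motif, chr17:34198088-34198116, plus strand): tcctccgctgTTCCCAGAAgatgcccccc

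The match to TGACNNNGC began 47 bases before the RefSeq start of Psmb5 and 9 bases before that of Psmb6. In Psmb8 the match TTCCCAGAA, which reads as a match on both strands, began 97 bases before the RefSeq start, inside an exon of a longer transcript in the GENCODE annotation. In Psmb3 a match to the interferon-stimulated core lay on the opposite strand, upstream of CCAAT matches that began 85 and 43 bases before the start. No match to the 5 motifs was in the 250 bases before Psmb10. No stretch is printed for Psmb7, or for Psmb9, whose matches to CCAAT and GGGCGG began 8 and 55 bases before the start, inside annotated exons. RefSeq promoter entries were found for 42 of the 50 genes, and over the 250 bases before each start 5 of the 42 (11.9%) held TGACNNNGC, against 11.5% of all 27025 genes with an entry. TTCNNNGAA was in 2 of the 42 (4.76%), against 8.13% of all genes. The interferon-stimulated core was in 3 (7.14%), against 3.46%. CCAAT was in 15 (35.7%), against 37.5%, and GGGCGG in 22 (52.4%), against 35.4%. A match describes the letters and is not a shown binding site.

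Together the 50 genes held 8821 CPM, or 0.882% of all UMIs (exact 95% Poisson interval 8786 to 8856 CPM, counting error only, as for all intervals given here). In single epithelial cells their sum was 3218 CPM at the lowest, 9184 CPM at the median and 11980 CPM at the highest. The 14 constitutive core genes held 4127 CPM (4103 to 4151) and the 17 regulatory genes 3786 CPM (3764 to 3809). By cell, the core sum had a lowest value of 902, a median of 4350 and a highest of 5872 CPM, and the regulatory sum a lowest value of 1695, a median of 3813 and a highest of 5304 CPM. Each of these 31 genes was detected in at least 95.5% of all cells, at pooled levels of 92.4 to 587 CPM.

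**Figure D1:**
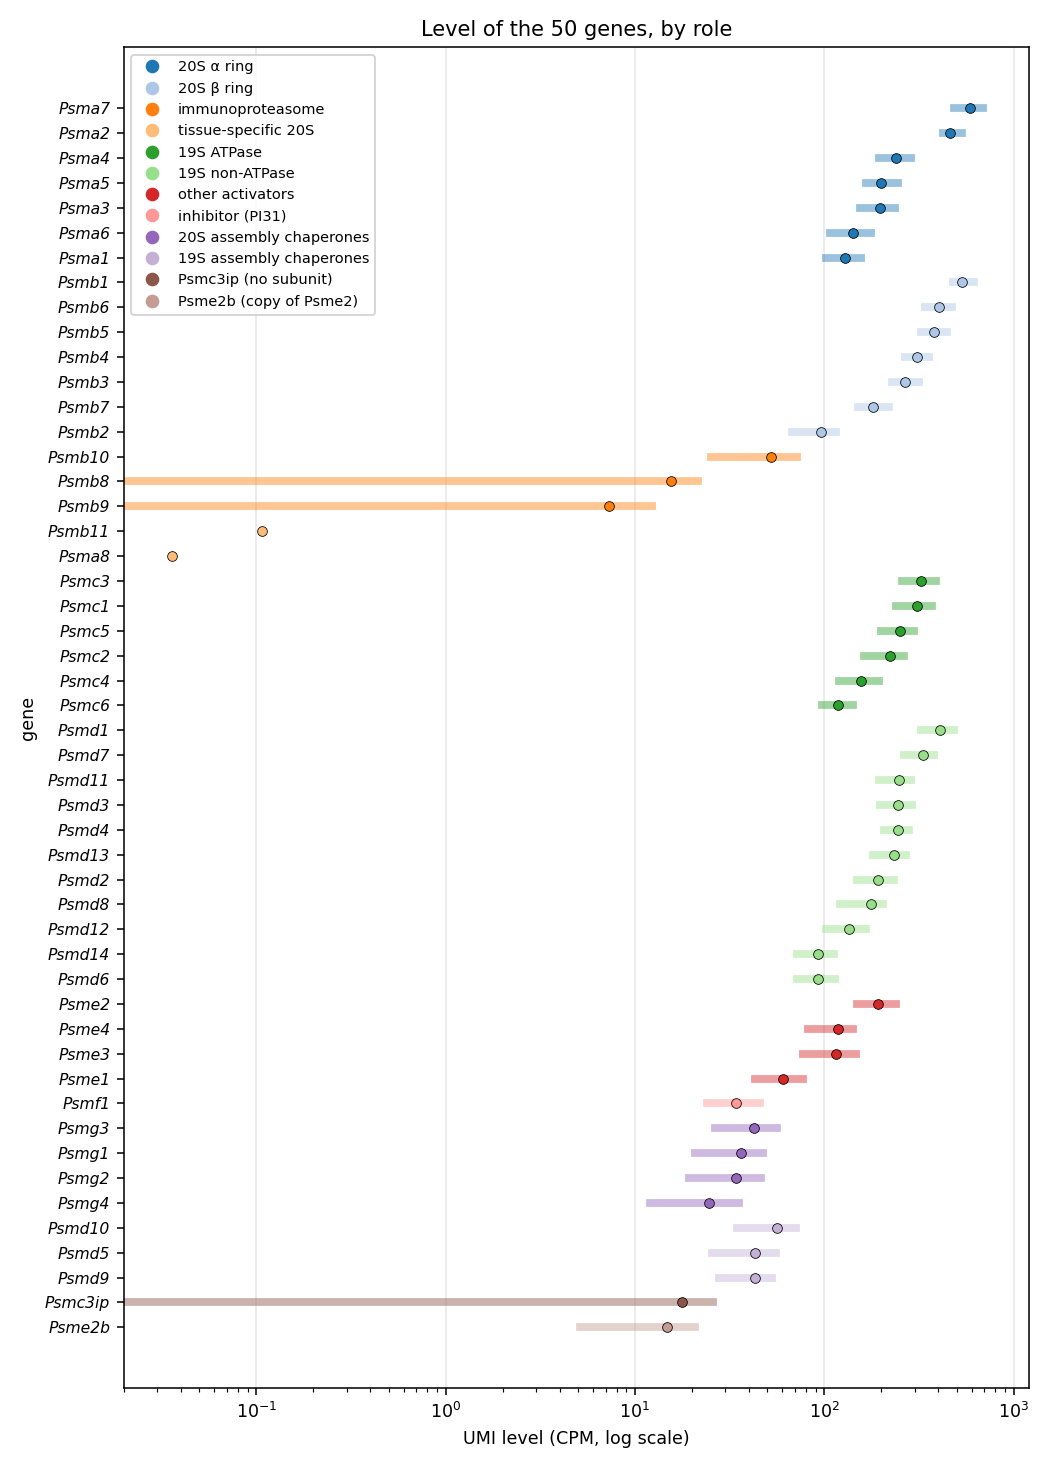
Level of each of the 50 genes in UMI CPM (log axis), grouped by role from the 20S core at the top to the genes matched by symbol at the bottom. Points are CPM of UMIs pooled over all cells and bars span the quartiles of single epithelial cells with at least 40000 UMIs, with a quartile of 0 drawn at the left edge; the 31 constitutive core and regulatory genes lie between 92.4 and 587 CPM, and Psmb11 and Psma8 lie lowest.

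In the α ring, which gates the barrel, Psma7 was the most abundant gene of the family at 587 CPM (578 to 596), with 62.8 CPM in the lowest epithelial cell, 594 at the median and 910 in the highest. Psma2 followed at 464 CPM (456 to 472). The lowest of the ring were Psma1 at 128.7 CPM and Psma6 at 142.6 CPM, with Psma3, Psma5 and Psma4 between 196 and 239 CPM. The 7 α genes spanned 4.57-fold in UMI CPM although the rings hold equal numbers of each subunit. UMIs count molecules and need no scaling by transcript length. As a second scale, the same genes were set out as reads per kilobase of the longest principal transcript per 1000000 reads. Reads per UMI were alike in short and long transcripts, at 2.25 for Psmb6 (798 bases), 2.40 for Psmd1 (3112 bases) and 2.25 for Psme4 (6491 bases). Division by length therefore lowers genes with long transcripts on this second scale. In reads per kilobase Psma7 was again the highest of all 50 genes at 594, Psma4 had 213, Psma1 had 126.1 and Psma3 was lowest of the ring at 79.5.

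In the β ring Psmb1, a subunit with no cutting site, had 532 CPM (524 to 541) and Psmb2, another of that kind, was lowest at 96.2 CPM (92.6 to 99.9). The catalytic subunits came between these values. Psmb6, the caspase-like subunit (chr11:70525367-70527858), had 405 CPM (397 to 412), with 90.7, 413 and 621 CPM in the lowest, median and highest epithelial cell. Psmb5, the chymotrypsin-like subunit (chr14:54614119-54618022), had 378 CPM (371 to 386), with 42.7, 383 and 763 CPM. Psmb7, the trypsin-like subunit (chr2:38588036-38644087), had 181.1 CPM (176.1 to 186.2), with 0, 181.8 and 299 CPM. Psmb4 at 309 CPM and Psmb3 at 267 CPM complete the ring. In reads per kilobase Psmb6 had 491, Psmb5 had 432 and Psmb7 had 138.4, so Psmb7 was the lowest catalytic subunit on both scales. Psmb7 overlaps Nek6 on the opposite strand, which had 2532 UMIs against 5039 for Psmb7, and the sources used here do not say whether strand was used in counting.

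Among the 6 ATPases, which unfold the substrate, Psmc3 had 326 CPM (319 to 333) and Psmc1 310 CPM (304 to 317), and Psmc4 at 156.9 CPM and Psmc6 at 118.6 CPM were lowest. The other 19S genes ranged from Psmd1, a large scaffold subunit, at 410 CPM (402 to 417) and Psmd7 at 332 CPM to the deubiquitinase Psmd14 at 93.2 CPM and Psmd6 at 92.4 CPM. The ubiquitin receptor Psmd4 had 245 CPM. The median 19S gene stood at 0.924 of the median constitutive 20S gene in UMI CPM (233.9 against 253.2 CPM), and at 0.536 of it in reads per kilobase (105.3 against 196). In read counts not divided by length the ratio was 0.819. The per-kilobase ratio also carries the lengths of the transcripts, so it is not read as the balance between the subcomplexes. The ranks of the 50 genes on the UMI and the per-kilobase scales had a Spearman rho of 0.90 across genes, which are not independent replicates.

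The inducible catalytic subunits were low: in sum, the constitutive genes they replace had 12.8 times their UMIs. Psmb10 (chr8:105935735-105938444) had 52.5 CPM (49.9 to 55.3), with 0, 44.9 and 234 CPM in the lowest, median and highest epithelial cell, the highest being the enzyme-rich Acinar52. Psmb8 (chr17:34197721-34201454) had 15.5 CPM (14.1 to 17.1), with 0, 7.84 and 145.2 CPM. Psmb9 (chr17:34181987-34187764) had 7.30 CPM (6.33 to 8.37), with 0, 4.33 and 70.3 CPM. A UMI of Psmb10 was seen in 88.8% of all cells, of Psmb8 in 50.8% and of Psmb9 in 45.8%. The order was the same in reads per kilobase, at 35.7 for Psmb10, 9.53 for Psmb8 and 4.55 for Psmb9. Psmb9 overlaps Tap1 on the opposite strand, which had 205 UMIs against 203 for Psmb9, so its level carries that doubt.

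Set against the constitutive subunits they replace, the 3 inducible genes held 2097 UMIs against 26831 of Psmb5, Psmb6 and Psmb7, a share of 7.25% (exact 95% binomial interval 6.95 to 7.55). The share differed by position. Psmb10 made up 22.5% (21.5 to 23.5) of Psmb10 and Psmb7, Psmb8 made up 3.94% (3.59 to 4.32) of Psmb8 and Psmb5, and Psmb9 made up 1.77% (1.54 to 2.03) of Psmb9 and Psmb6. These intervals, which cover only the counting error of pooled UMIs, do not overlap. Over single epithelial cells the ranges did: 0 to 82.4% (median 19.2%) for Psmb10, 0 to 28.6% (1.67%) for Psmb8 and 0 to 21.1% (1.10%) for Psmb9. The 82.4% was that of the enzyme-rich Acinar52, with 42 UMIs of Psmb10 and 9 of Psmb7. By cell the summed share had a median of 5.92%, reached 33.8% and was over 10% in 40 of the epithelial cells, and 3 of the cells had no UMI of any inducible gene.

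**Figure D2:**
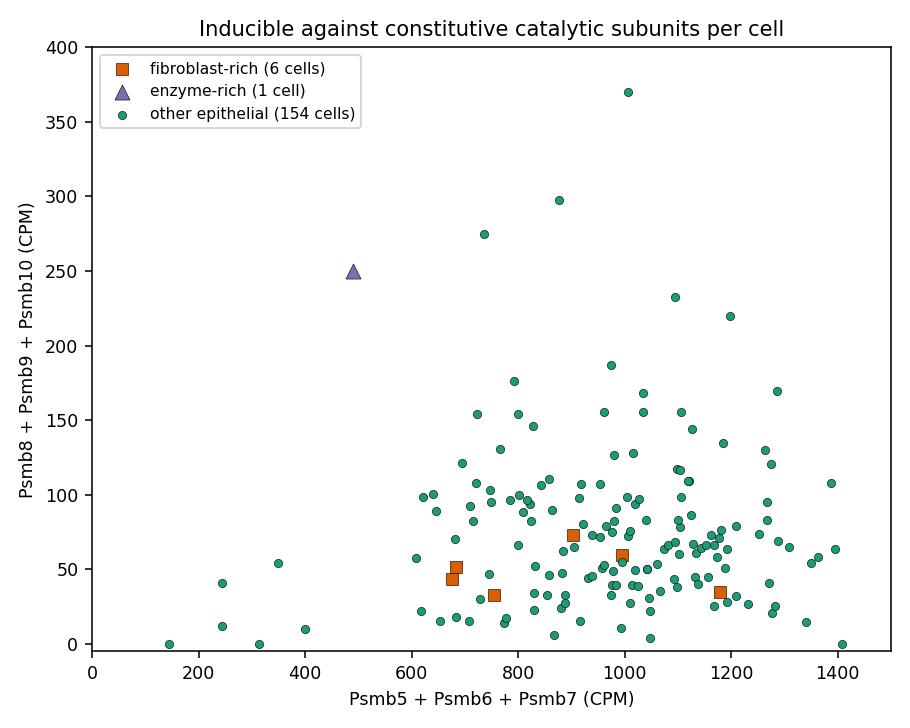
Summed inducible (Psmb8, Psmb9, Psmb10, vertical axis) against summed constitutive (Psmb5, Psmb6, Psmb7, horizontal axis) catalytic subunits in UMI CPM, 1 point per cell with at least 40000 UMIs (6 fibroblast-rich squares, the enzyme-rich triangle and the other epithelial cells as circles). The highest inducible sum was 370 CPM in Acinar71, and the 6 squares lie between 32.8 and 72.9 CPM.

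The highest inducible sums were in a few cells whose core sums differed. Acinar71 had 370 CPM, from 31 UMIs of Psmb8, 15 of Psmb9 and 33 of Psmb10, with a core sum of 3962 CPM. Acinar72 had 298 CPM and Acinar172 had 275 CPM, with core sums of 3373 and 3835 CPM, against a first quartile of 3834 and a median of 4350 CPM over the epithelial cells. The enzyme-rich Acinar52 had 250 CPM, almost all of it Psmb10 (42 UMIs, with 3 of Psmb8 and none of Psmb9), at a core sum of only 1707 CPM. In these 4 cells the share of inducible subunits was 25.3% to 33.8%, the highest being that of Acinar52, where the constitutive catalytic sum was 489 CPM against a median of 992 CPM over the epithelial cells.

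The 2 tissue-specific core genes were near 0. Psmb11, the catalytic subunit of the thymic cortex, had 3 UMIs in 3 cells, and Psma8, the α subunit of the testis, had 1 UMI in 1 cell. Their sum was 0.144 CPM, and levels of this size rest on single molecules.

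Other activators, which open the barrel without the 19S particle, summed to 485 CPM. Psme2 had 191.4 CPM (186.3 to 196.7) and its partner Psme1 60.2 CPM (57.3 to 63.2), although their proteins assemble into 1 ring, and in reads per kilobase the values were 186.8 and 54.7. Some Psme2 reads could belong to Psme2b, listed at 14.7 CPM. Psme3, a nuclear activator of the same family, had 115.6 CPM (111.6 to 119.6), and Psme4, a large activator known from spermatogenesis, had 118.2 CPM (114.2 to 122.3). In reads per kilobase Psme4 had 17.7, a value lowered by division by its transcript length of 6491 bases. The inhibitor gene Psmf1 had 34.4 CPM (32.2 to 36.6). The 4 chaperone genes of the 20S core (Psmg1 to Psmg4) had 24.7 to 42.4 CPM each and the 3 of the 19S base (Psmd5, Psmd9, Psmd10) 42.9 to 56.4 CPM. Psmc3ip had 17.6 CPM. Of the 50 genes, 24 overlapped another annotated gene, 13 of these a protein-coding one, and reads of such pairs may be shared.

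Variation between cells was small for most subunits. Over the epithelial cells, 43 of the 50 genes had at least 1 UMI on average after thinning and could be described; Psmb8, Psmb9, Psmb11, Psma8, Psmg4, Psme2b and Psmc3ip could not. The variation beyond counting noise (the extra-Poisson coefficient of variation) was below that of genes of like mean in 38 of the 43, and in 30 of the 31 core and regulatory genes, against 49.7% of all 6707 genes described. Its median was 27.1% over the 43 genes, against 46.4% over all genes. The lowest estimates, for Psmf1 and Psma1, fell below 0 and count as 0, which does not show that variation was absent. Psmf1 had a mean of only 1.30 thinned UMIs. Psma1 had a rho of 0.40 with the summed core and regulatory genes, itself left out. Psmd5 had 13.95%. At the other end, relative to genes of like mean, were Psme4 (50.9%, or 1.58 times the squared variation of its neighbours), Psmb10 (62.02%, 1.55 times) and Psmd10, the oncoprotein gankyrin (56.1%, 1.33 times). Psmd11 was the only core or regulatory gene above its neighbours, at 40.4%. Summed, the core genes varied by 20.01% and the regulatory genes by 17.2% beyond counting noise.

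Core and regulatory genes varied together from cell to cell. The 2 sums had a Spearman rho of 0.70 over the epithelial cells, which share a protocol and an equal thinned depth, and a Pearson correlation of 0.73 that became 0.87 after the counting noise of each sum was taken out. The α and β rings had a rho of 0.55 (noise-corrected Pearson 0.87), and the ATPases and the other 19S genes 0.54 (0.83). In the blocks of 24 cells that the numbers in the cell titles form (13 to 24 epithelial cells each), rho of the core with the regulatory sum was 0.57 to 0.82. By cell the regulatory sum was a median of 0.903 times the core sum, with a range of 0.606 to 2.61.

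**Figure D3:**
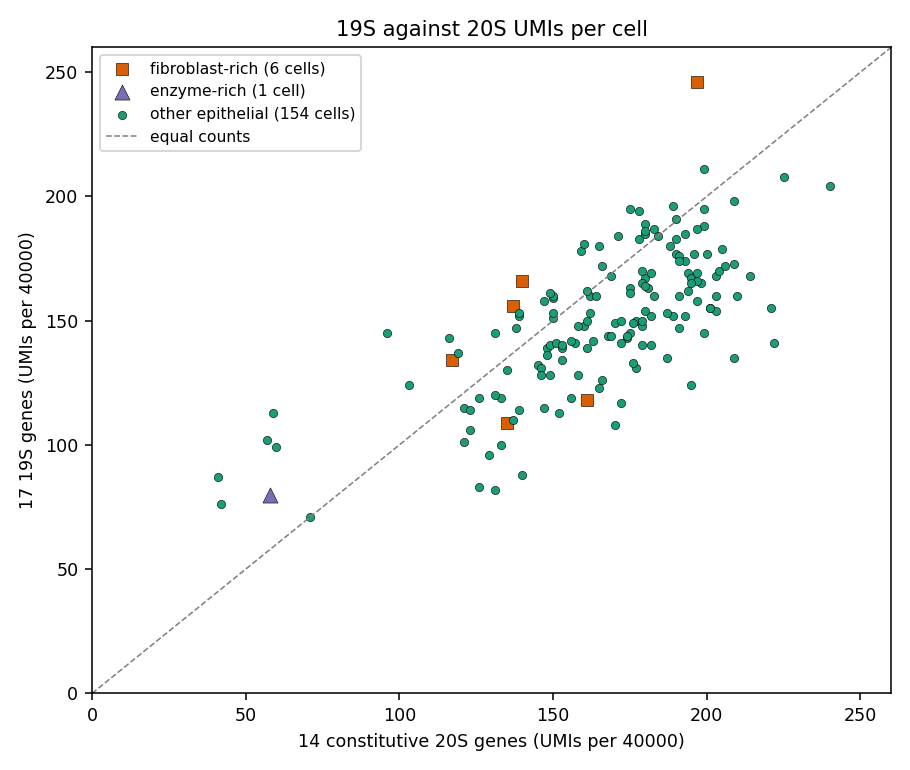
Summed 19S UMIs (17 genes, vertical axis) against summed constitutive 20S UMIs (14 genes, horizontal axis) in each cell after thinning to 40000 UMIs, with fibroblast-rich cells as squares (6), the enzyme-rich cell as a triangle and the other epithelial cells as circles; the dashed line marks equal counts. The sums rise together (rho 0.70 over the epithelial cells), and the 6 epithelial cells with the fewest core UMIs (41 to 60) lie above the line.

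The 6 epithelial cells with the lowest core counts had 41 to 60 core UMIs of 40000, against a mean of 165.8. Acinar16, Acinar162, Acinar156, Acinar173 and Acinar81 had 2.26% to 4.36% mitochondrial UMIs, against a median of 0.995% over the epithelial cells, and their regulatory sums were 1.68 to 2.61 times their core sums. A high mitochondrial share is often read as a sign of cell damage, and its part in the low core counts was not tested. Without the cells at or over 2% mitochondrial UMIs, rho of the core with the regulatory sum was 0.67. The last of the 6, Acinar52, had 0.216% mitochondrial UMIs, a core sum of 1707 CPM and a regulatory sum of 1896 CPM, 1.11 times the core; its enzyme transcripts held 268509 CPM. The next-lowest core count, 71 UMIs, was in Acinar98, which also held many enzyme transcripts and had a core sum of 1653 CPM. Without Acinar52, Acinar55, Acinar98 and Acinar155, rho of the core with the regulatory sum was 0.68.

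Pairs of single genes had lower values of rho than the sums. Over the 903 pairs of the 43 genes the median rho was 0.12 and 80.8% of the pairs were positive, against a median of 0.01 and 53.02% over all pairs of the 6707 genes. Among the core genes alone the median was 0.24, and among the 19S genes 0.14. Genes with more UMIs give less noisy correlations: among genes with a mean of at least 5 UMIs the median was 0.19 for the 27 core and regulatory genes, against 0.03 over 1545 genes. The pairs with the highest rho joined Psmd1 with Psmb3 (0.50) and Psma7 (0.49), across the subcomplexes, and with Psmd12 (0.40), within the 19S particle. The lowest joined Psme4 with Psmb4 (−0.24) and with the chaperone gene Psmg3 (−0.21).

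**Figure D4:**
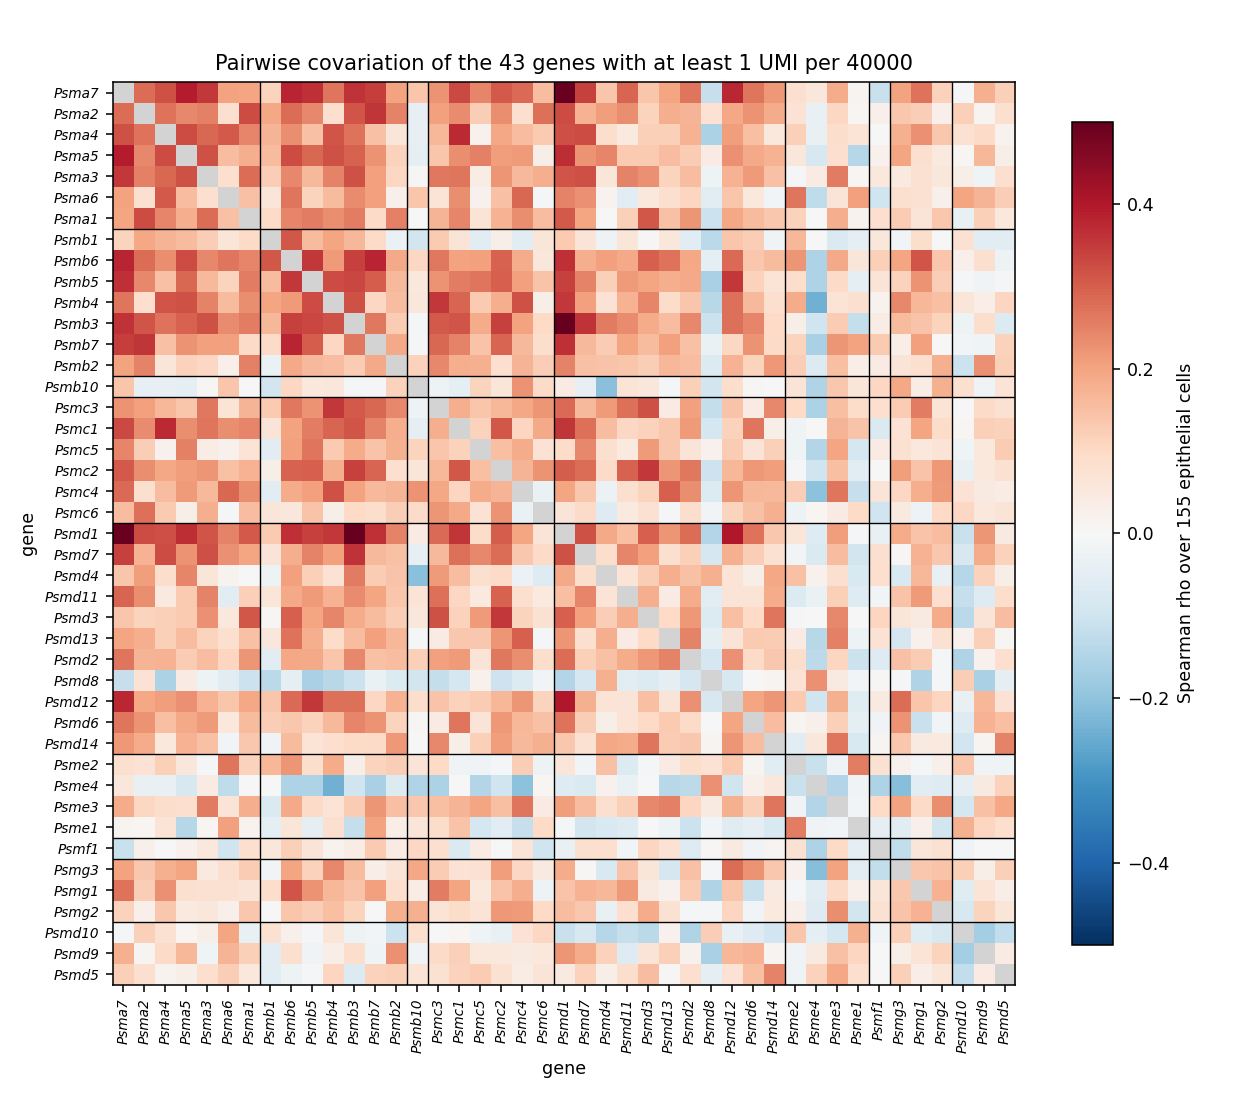
Spearman rho of each pair of the 43 genes over the epithelial cells thinned to 40000 UMIs, ordered by role with black lines between roles; red is positive, blue is negative and the colour scale runs from −0.5 to 0.5. Most pairs of core and regulatory genes are red (median 0.18 over 465 pairs). The rows of Psme4, Psmd8, Psmd10, Psme1, Psmf1 and Psmb10 are pale or blue.

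Each gene was also compared with the summed level of the 31 core and regulatory genes, itself left out. The Spearman correlation was at least 0.3 in 20 of the 43 genes, all of them core or regulatory, against 10.7% of all genes; among genes with a mean of at least 5 UMIs it was 19 of 27 core and regulatory genes, against 26.8% of 1545. Psmd1 had 0.62, Psma7 and Psmb3 0.57 each and Psmb6 0.52. Psmb5 had 0.45 and Psmb7 0.41. Psmd8, a lid subunit whose level was 62.3, 160.3 and 479 CPM in the lowest, median and highest epithelial cell, had −0.17, the only negative value among the 31. None of the 43 was at or below −0.3, against 3.52% of all genes. The chaperones had lower values, from 0.27 for Psmg1 to −0.08 for Psmd10, and so did the other activators, at 0.28 for Psme3, 0.10 for Psme2, −0.004 for Psme1 and −0.09 for Psme4. Psme1 and Psme2, partners in 1 ring, had a rho of 0.26 with each other.

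The inducible sum had a rho of −0.06 with the core and regulatory sum and −0.02 with Psmb5, Psmb6 and Psmb7. None of the 43 genes reached 0.3 with the inducible sum, against 0.283% of all genes, a background so low that nothing is read from this count. Among themselves the inducible genes had rho of 0.26 (Psmb8 with Psmb9) and 0.20 (Psmb10 with each of these), against 0.36, 0.30 and 0.38 among the constitutive ones, at a mean of 3.08 UMIs per cell for the inducible sum and 38.8 for the constitutive sum. Such sparse counts allow no more than these values to be given.

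Other gene groups were set beside the proteasome in the same cells. The core and regulatory sum had a rho of 0.56 with oxidative phosphorylation genes of the nucleus, 0.55 with heat shock chaperones, 0.51 with G2/M genes, 0.48 with ribosomal protein genes, 0.46 with S phase genes and 0.45 with unfolded protein response genes. It was 0.11 with oxidative stress genes, −0.36 with interferon and antigen presentation genes, −0.43 with mitochondrial transcripts and −0.01 with the total UMIs of the cell before thinning. Within title blocks the values were 0.28 to 0.75 for G2/M, 0.36 to 0.76 for heat shock and 0.27 to 0.80 for oxidative phosphorylation. They came near 0 in some block for S phase (0.04 to 0.68), the unfolded protein response (0.08 to 0.68) and mitochondrial transcripts (−0.79 to −0.06). Of the heat shock list, 4 of the 9 genes that could be described reached 0.3 with the core and regulatory sum. The share of all genes was 10.7%, and 26.8% among genes with a mean of at least 5 UMIs. The 4 were Hspd1 (0.69), Hspe1 (0.66), Hsp90aa1 (0.57) and Hsp90ab1 (0.33). The rest of the 9 did not: Hsph1 (0.21), Hspa8 (0.20), Bag3 (−0.04), Dnajb1 (−0.06) and Hspa1b (−0.19). Of the genes described in other lists, 18 of 18 reached 0.3 for G2/M and 13 of 18 for S phase. For ribosomal protein it was 50 of 80 and for oxidative phosphorylation 40 of 76. It was 4 of 16 for the unfolded protein response, 2 of 15 for oxidative stress and 0 of 8 for the interferon list. The interferon list ranged from −0.73 to 0.15 between blocks, so its sign was not the same in each.

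By gene, 13 of the 43 had a rho of at least 0.3 with the heat shock list, against 6.86% of all genes, with Psma7 at 0.50 and Psmd1 at 0.49. With the G2/M list it was 13 of the 43, against 12%, with Psmd1 at 0.40, the chaperone gene Psmg1 at 0.39 and Psmc3 at 0.39. With oxidative phosphorylation it was 11, against 11.3%, with Psmb6 at 0.47. With S phase it was 8, against 11.6%, with unfolded protein response 5, against 7.51%, and with ribosomal protein genes 5, against 4.52%. Psmd8 ran the other way: it alone of the 43 was at or below −0.3 with the G2/M list (−0.39, against 4.12% of all genes), with oxidative phosphorylation (−0.38, against 8.44%) and with ribosomal protein genes (−0.36, against 2.31%). Mitochondrial transcripts were at or below −0.3 with 3 of the 43, against 2.67%. With the interferon list no member reached 0.3, against 0.358%, and Psmd2 alone was at or below −0.3 (−0.32), against 1.18%. Highly expressed genes pass more often: among genes with a mean of at least 5 UMIs, the core and regulatory genes passed in 13 of 27 for heat shock, against 18.6% of 1545, in 10 of 27 for G2/M, against 21.2%, in 6 of 27 for S phase, against 20.2%, in 5 of 27 for the unfolded protein response, against 18.96%, and in 5 of 27 for ribosomal protein genes, against 16.7%. The shares for the last 3 lists were near those of all such genes. With oxidative phosphorylation it was 11 of 27, against 28.8% of such genes. Mitochondrial transcripts were at or below −0.3 with 3 of 27, against 8.09%.

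**Figure D5:**
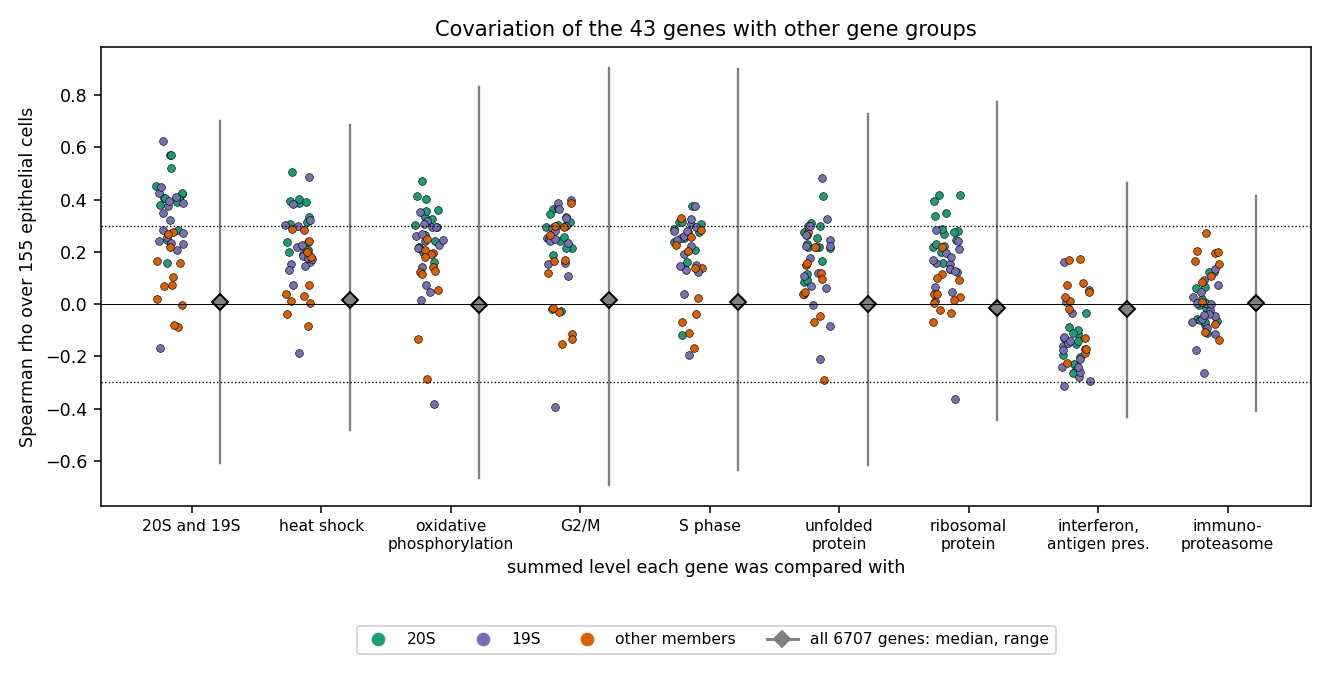
Spearman rho of each of the 43 genes with the summed level of 9 gene groups over the epithelial cells (coloured points, scattered sideways for clarity: green 20S, violet 19S, orange other members), and to the right of each the median (diamond) and range (line) over all 6707 genes. Dotted lines mark rho of 0.3 and −0.3; 20 of 43 members pass 0.3 with the core and regulatory sum, 13 with heat shock and none with the immunoproteasome sum.

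Outside the family, the 10 genes with the highest rho to the core and regulatory sum (over the epithelial cells, among genes with a mean of at least 5 UMIs) were Hnrnpa2b1 (0.70), Hspd1 and Ptma (0.69 each), Cycs (0.69), Ran (0.68), Hspe1 and Serbp1 (0.66 each), Ncl (0.66), Eif5a and Hmgb1 (0.65 each). Hspd1 and Hspe1 encode the paired chaperonins of the mitochondrial matrix, Cycs encodes cytochrome c, Ncl a nucleolar protein and Hnrnpa2b1 an RNA-binding protein. The lowest were the lysosomal protease gene Ctsd (−0.61), the antiproliferative gene Btg2 (−0.59), the integrin gene Itgb4 (−0.56) and the E-cadherin gene Cdh1 (−0.53); these were named after their values were seen. The genes with the highest rho to the inducible sum, also named after their values were seen, were Lcn2 (0.41), Cp (0.39) and C3 (0.38), which encode secreted proteins of the acute-phase response, and the lowest was S100a6 (−0.41).

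The partners of the proteasome were measured with 23 of 26 listed symbols found. Among the most abundant were the ubiquitin genes Ubb at 935 CPM and Rps27a at 747 CPM, and Pomp, the maturation factor of the 20S core, at 388 CPM. Their summed level had a rho of 0.15 with the core and regulatory sum, and 4 of the 21 partners that could be described reached 0.3, against 10.7% of all genes. By gene it was 0.40 for Rps27a, 0.37 for Pomp, 0.30 for Txnl1 and −0.15 for Ubb. The transcription factor gene Nfe2l1, known to raise proteasome genes when the proteasome is inhibited, had 102.5 CPM and a rho of 0.04. Of the interferon list, the MHC class I genes H2-D1 at 465 CPM and H2-K1 at 258 CPM and B2m at 217 CPM were the most abundant, and the peptide transporter gene Tap1 had 7.37 CPM and the class I activator gene Nlrc5 2.77 CPM. The list had a rho of 0.27 with the inducible sum, and −0.24 to 0.60 within title blocks.

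The 6 fibroblast-rich cells held the family at levels that overlapped those of the epithelial cells. Their core sum was 2968 CPM in the lowest, 3600 at the median and 5082 in the highest, against a median of 4350 CPM in the epithelial cells. Their regulatory sum was 3026, 3697 and 5564 CPM, against a median of 3813 CPM. The ranges overlapped for both sums. On thinned means 1 of the 44 genes with enough UMIs was at least 1.5-fold higher in the fibroblast-rich cells, against 28.9% of all 8263 genes, and 9 were at least 1.5-fold lower, against 28.2%. The median fold was 0.918 for the family and 0.994 for all genes. The higher gene was Psmd8, with 11.3 thinned UMIs per fibroblast-rich cell against 7.01 per epithelial cell (1.62-fold). By median CPM before thinning, a measure unlike these means, Psmd8 had 188.7 CPM in the fibroblast-rich and 160.3 CPM in the epithelial cells. Its range of 62.6 to 394 CPM in the fibroblast-rich cells lay within the 62.3 to 479 CPM of the epithelial cells. Among the lower ones were Psme1 (0.36-fold), Psma6 (0.40), Psma1 (0.41), Psme3 (0.42), Psmb10 (0.58) and Psme2 (0.61), at 0.833 to 5 thinned UMIs per fibroblast-rich cell. Psme1 had 7.48 to 44.9 CPM in the fibroblast-rich cells, against a median of 58.4 CPM in the epithelial cells, where it ran from 0 to 207 CPM. The inducible sum was 32.8 to 72.9 CPM in the fibroblast-rich cells, against a median of 66.6 CPM in the epithelial cells, and no fibroblast-rich cell had a UMI of Psmb9. The highest of these sums was in Acinar188, a mixed cell by its markers, with 7172 CPM of epithelial genes beside 8327 CPM of fibroblast genes; the other 5 held 568 to 1002 CPM of epithelial genes and 32.8 to 59.8 CPM of the inducible genes. Without Acinar188, 2 of the 44 genes were at least 1.5-fold higher (Psmd8 at 1.83-fold and Psmd7), against 30.4% of all genes, and 11 were at least 1.5-fold lower, against 28.8%. With 6 cells of no named origin, these folds describe the cells and test no difference.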

How the data were processed

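The RNA of 179 single cells was analysed. The authors deposited raw whole-number counts, 1 table of UMI counts and 1 of read counts with a row per cell and a column per Ensembl gene, with no normalization. Per the submitters' processing notes, STAR and featureCounts were used, without a version, on GRCm38, also written mm10. The UMI collapsing, the choice of cells and the strand setting are not given in the sources used here. Symbols, biotypes, positions and exon lengths came from the GENCODE annotation of GRCm38, and promoters from RefSeq. All cells formed 1 group and had at least 1000 UMIs. No 2 cells held identical counts, and doublets were not searched for, since the labels describe each sample as 1 cell.

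CPM of pooled UMIs carry exact 95% Poisson intervals, and shares exact 95% binomial ones. Amplified reads are not independent molecules, so intervals cover counting error only. Cells with at least 40000 UMIs were thinned to 40000 (161 of 179, 18 left out), and 6 with at least 1000 CPM of fibroblast genes were set apart, which left 155 epithelial cells for every rho. Protein-coding genes with a thinned mean of at least 1 UMI were described. Extra-Poisson variation is the variance beyond the mean of thinned counts, set against the median of 101 genes of like mean. A rho of 0.3 and a fold of 1.5 were used as round limits, and a mean below 3 counts over the group was set to 3 counts for folds. The values of rho, the noise-corrected correlation and the extra-Poisson variation were tested on simulated data. The intervals, the comparison with genes of like mean and the folds were not. The genes named are the catalytic, tissue-specific, activator and inhibitor genes, the 2 highest and 2 lowest of each subcomplex, the 3 most and 3 least variable, the leading partners and the 10 most like genes; a few others are named for their rho or fold, after their values were seen. Some partner genes are not reported here. Members, lists and limits were chosen with earlier results of these data known. Alternatives were read counts, other totals and thinning depths, Pearson correlation, and left-out cells, some of them added after seeing the data. The software was matplotlib 3.10.9, scipy 1.17.1, pandas 2.3.3 and numpy 2.4.6 under Python 3.11.15.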

Additional observations from a re-analysis of the deposited data

How the results depend on the processing

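With 1 group and no replicates, precision is limited by counting and nothing measures the spread between cultures or mice. No paired analysis was possible because the labels give a single group with no replicate numbers. Among comparisons of the main values with other settings, 17 moved by more than the counting interval, or by more than 0.1 in rho or ratio, and none of the called values changed sign. Read counts in place of UMIs gave 8655 CPM for the family, an inducible share of 6.78% and a regulatory to core ratio of 0.819. Equal weight per cell gave 8701 CPM. The ratio was 0.756 from means over subunits and 0.536 per kilobase, a scale added after seeing the data. The Spearman correlation of core with regulatory genes was 0.54 at 20000 UMIs and 0.80 at 100000 UMIs, depths that different numbers of cells reach. In the cells with at least 100000 UMIs alone, an alternative added after seeing the data, it was 0.58 at 20000, 0.74 at 40000 and 0.80 at 100000 UMIs. The median pair of members had 0.26 without thinning and 0.27 with ribosomal and mitochondrial UMIs left out of the total, also added later. Oxidative stress reached 0.23 at 100000 UMIs and 0.32 by Pearson correlation of log2 values, which also gave 0.46 for partners, against 0.15 by rho, 0.72 for heat shock, 0.69 for ribosomal protein and 0.70 for oxidative phosphorylation genes; the cause was not tested. Of the comparisons outside the main values, nearly all of them levels of single members, 87 moved by the same limits and 324 did not. By over 1.5 times, only the levels of Psmb11 and Psma8, at 4 UMIs in sum, moved between sets of cells.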
